A study of Mus musculus with 8 samples.

Results

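The sensors of viral RNA and DNA were followed by the H3K9ac peaks at 10 genes, *Ifih1*, *Ddx58*, *Dhx58*, *Mavs*, *Trim25*, *Eif2ak2*, *Zbp1*, *Tlr3*, *Tlr7* and *Tlr9*, out of 21938 protein-coding genes of mm10. They were chosen by name, with earlier results of these data known, including lower ranks of interferon-stimulated genes. Their counts beside the shares of all promoters are thus descriptive and give no independent support. For each gene the deposited peaks within 1 kb of any annotated TSS and the peaks inside the gene body were read. The mark, lysine 9 acetylation of histone H3, is found at active promoters, and ChIP-seq for it was done on frozen BM cells of C57BL/6 mice. The labels give no sort of these cells, while the study also speaks of c-kit+ cells, so that which BM cells were used is uncertain. All mice carried the *NUP98-HOXD13* transgene, a model of MDS that can progress to AML. *GFI1-36S* and *-36N* mice express human *GFI1* from the murine locus, with serine or asparagine at the variant position, and *GFI1-KD* mice express less GFI1. In each genotype, 1 library came from vehicle (DMSO) treatment and 1 from curcumin at 20 mg/kg, injected i.p. every week, so that 6 libraries were read, in 3 pairs named here by their genotype. The mice were examined when they showed overt leukaemia or poor health, and neither their ages nor a pooling of animals is given. Since each group is 1 library, differences between treatments were not checked in replicates and carry no p-value.

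Cells detect viruses by nucleic acids that are in the wrong place or carry unusual ends. RIG-I-like receptors bind viral RNA in the cytosol and signal through the mitochondrial adaptor MAVS, whereas Toll-like receptors bind RNA or DNA taken up into endosomes. Both routes induce type I interferon, and several of the cytosolic sensors are themselves interferon-stimulated genes, so that a first signal raises the sensitivity to a second. Toll-like receptors of this class are best known from dendritic cells, macrophages and B cells.

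The lists held 20354 to 49213 peaks, and 9726 to 11801 promoters had a peak in a library. The promoter peak of each gene with the highest fold enrichment was given a rank within its library, where 100 is the top of all promoters and 0 means no peak. The summit height is the number of fragments at the summit, recovered from fold enrichment and p, over the genome background of that library. Its exact Poisson 95% interval covers counting error only. The library labelled *GFI1-36S* curcumin stood apart. It had 20354 peaks, the fewest, and 3 peaks on chromosome Y where the other libraries had 0. It had promoter peaks at 13 of 14 T-cell genes, 0 of 12 neutrophil genes, 0 of 8 monocyte and macrophage genes and 0 of 8 stem and progenitor genes. In the other libraries the same counts were 3 to 8, 7 to 12, 8 and 6 to 8. Of the leukocyte markers *Ptprc*, *Spi1*, *Runx1* and *Ikzf1*, all 4 had a promoter peak in every library except this one, which had none at *Spi1*. In the names of the *GFI1-36S* lists the treatments are also the reverse of those in the labels. The labels were followed, and exchanging the treatments turns every direction given for the 36S pair. The list names of the 36N pair mark the vehicle library as heterozygous and the curcumin library as homozygous, which the labels do not state. By these names, curcumin and zygosity cannot be told apart in any difference given for the 36N pair.

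With vehicle, a promoter peak was present at all 10 genes in all 3 genotypes. With curcumin, 9 of 10 ranked lower in the 36N pair, against 39.9% of all promoters with a peak in that pair. In the KD pair 8 of 10 ranked lower, against 62.9% of all promoters, and in the 36S pair 10 of 10, against 69.1%. The KD count was 7 of 10 with a stricter q or with equal numbers of top peaks, where *Tlr7* ranked slightly higher, and the 36S count was 9 of 10 when ranked by summit height, where *Mavs* ranked higher. A higher rank was found for *Mavs* in the 36N pair (60.1% of all promoters), for *Mavs* and *Tlr9* in the KD pair (37.1%) and for 0 genes in the 36S pair (30.9%). The median change in rank was −12.3 in the 36N pair, where that of all promoters was 1.89. It was −10.8 in the KD pair, where that of all promoters was −2.34, and −16.9 in the 36S pair, where it was −6.61. A rank lower by 10 or more was found for 6 of 10 genes in the 36N pair (11.3% of all promoters), 5 in the KD pair (20.6%) and 7 in the 36S pair (41.4%). By 10 or more, 1 gene was higher in the 36N pair (19.3% of all promoters) and 0 were in the KD (9.47%) and 36S pairs (15%). No sensor gained a promoter peak, which 5.73%, 1.19% and 1.99% of all promoters did in the 36N, KD and 36S pairs. Since all 10 genes had a peak with vehicle, a gain was not possible, and this count gives no direction. In the KD pair, 0 sensors lost a promoter peak, where 6.73% of all promoters did. The share of *GFI1-36N* sensors that ranked lower by 10 or more was further from its background than the share in the 36S pair. Both the 36N and the KD pair had a rank lower by 10 or more at *Ifih1*, *Ddx58*, *Dhx58*, *Eif2ak2* and *Zbp1*, 5 of the 10 genes, compared with 2.86% of the 11192 promoters with a peak in each pair. The same genes without *Zbp1*, 4 of the 10, were lower by 10 or more in all 3 pairs, as were 1.68% of these promoters. This count rests on the labels of the 36S pair, whose curcumin library stood apart. With its treatments exchanged, these genes ranked higher there, by 16.5 (*Ddx58*) to 62.7 (*Ifih1*).

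**Figure D1:**
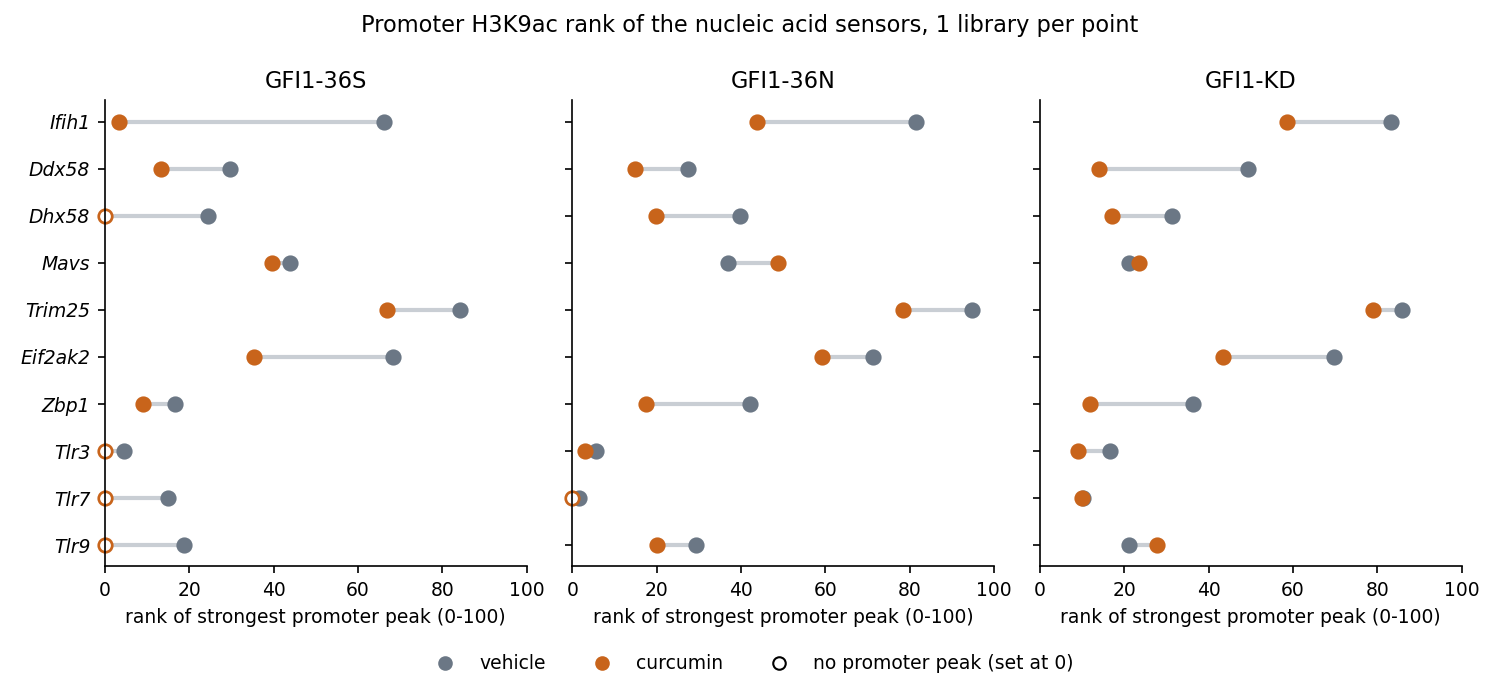
Rank of the strongest promoter peak of each sensor gene (0 to 100 within its library, horizontal axis) in vehicle (grey) and curcumin (orange) libraries, 1 panel per genotype and 1 library per point; open points mark genes with no promoter peak. *Ifih1* ranked 81.6 with vehicle and 43.8 with curcumin in the 36N pair, while *Mavs* ranked 36.8 and 48.6.

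**Figure D2:**
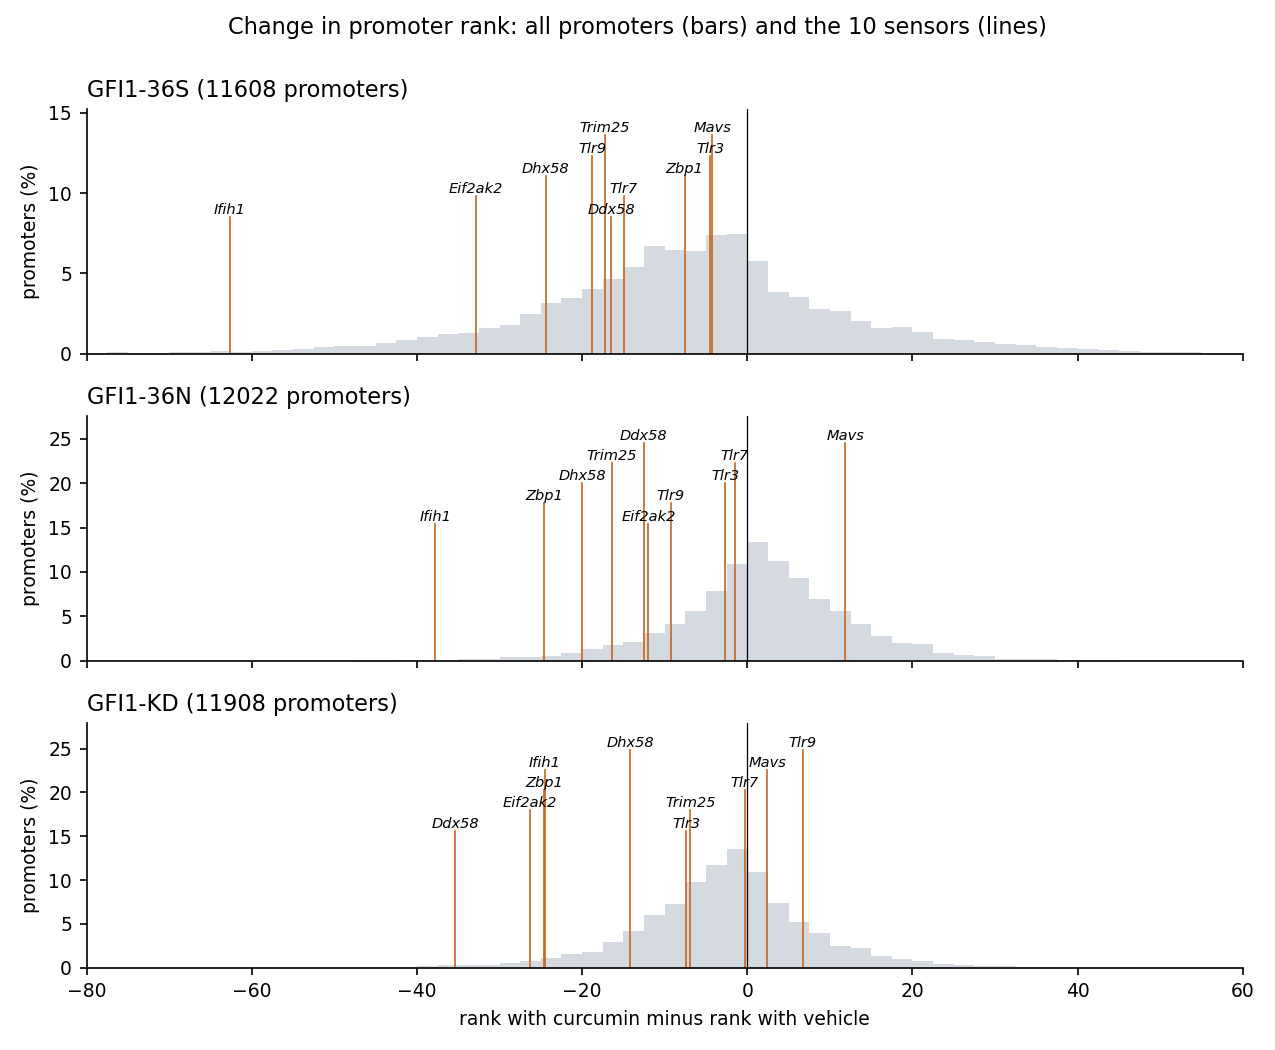
Rank with curcumin minus rank with vehicle (horizontal axis) for all promoters with a peak in the pair, as the percentage of promoters per bin (grey bars), with the 10 sensor genes as labelled lines, whose height carries no value. In the 36N pair, 9 of the 10 lines lie below 0, where 39.9% of the 12022 promoters lie.

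The RIG-I-like receptors are encoded by *Ifih1* (MDA5, which binds long double-stranded RNA), *Ddx58* (RIG-I, which binds short RNA with a triphosphate end) and *Dhx58* (LGP2, which has no signalling domain and modulates the others). *Ifih1* lies on the minus strand of chromosome 2 from 62595798 to 62646255, *Ddx58* on the minus strand of chromosome 4 from 40203773 to 40239828 and *Dhx58* on the minus strand of chromosome 11 from 100694884 to 100704271. Short stretches at the start of 4 sensor genes are printed here because of the element through which interferon acts on many of its targets, which 3 of them hold in full and *Trim25* in a looser form. RefSeq promoters of GRCm38.p6, the assembly of mm10, were found for 7 of the 10 genes, that is, for all except *Dhx58*, *Zbp1* and *Tlr7*. The interferon-stimulated response element was searched as GAAANNGAAA on both strands. It occurred in 3 of these 7 promoters, *Ifih1*, *Ddx58* and *Eif2ak2*, and in 3.44% of all 32851 promoters of the table. A looser form with 1 base less, GAAANNGAA, contains every match of the first and occurred in 4 of 7, with *Trim25* added, and in 8.56% of all promoters. The capitals mark the element, which in *Ddx58* and *Trim25* reads on the opposite strand.
*Ifih1*, bases 21 to 50 from the RefSeq start, minus strand, chr2:62646206-62646235: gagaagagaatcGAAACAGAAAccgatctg
*Ddx58*, bases −8 to 22, minus strand, chr4:40239804-40239833: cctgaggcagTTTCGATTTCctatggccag
*Eif2ak2*, bases 9 to 38, minus strand, chr17:78882535-78882564: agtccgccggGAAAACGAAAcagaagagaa
*Trim25*, bases −19 to 11, plus strand, chr11:88999384-88999413: gcccctcctgTTCAGTTTCgattccttcct
The elements of *Ifih1*, *Ddx58* and *Eif2ak2* lay under a promoter peak in all 6 libraries. Their distance to the summit of that peak was 69 to 192 bp at *Ifih1*, 126 to 182 bp at *Ddx58* and 111 to 189 bp at *Eif2ak2*. The *Trim25* element lay under a peak in 5 libraries and between a pair of peaks in the *GFI1-36S* curcumin library.

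At *Ifih1*, the peak ranked 81.6 with vehicle and 43.8 with curcumin in the 36N pair, 83.2 and 58.7 in the KD pair and 66.1 and 3.45 in the 36S pair. The curcumin library was the lower one in each pair, and the change of −37.8 in the 36N pair was one that 0.241% of all promoters reached or passed. The summit height was 29.7 with vehicle (interval 25.5 to 34.5) and 23.2 with curcumin (19.1 to 27.98) in the 36N pair, 38.8 (34.0 to 44.1) and 25.9 (21.6 to 30.8) in the KD pair, and 29.6 (24.9 to 34.8) and 4.78 (2.99 to 7.23) in the 36S pair. The intervals overlapped in the 36N pair and did not overlap in the other pairs. In the 36N pair, however, the summits of all promoters were higher with curcumin by a median of 1.24 times, and the *Ifih1* ratio was 0.781. The peak was also shorter with curcumin, at 3232 and 1558 bp in *GFI1-36N*, 4026 and 1339 bp in *GFI1-KD* and 2547 and 508 bp in the 36S pair. What was missing lay mainly downstream of the TSS, where the *GFI1-KD* vehicle peak reached 62643057 and the strongest curcumin peak ended at 62645224. A separate peak of 378 bp, at a fold enrichment of 3.67, remained within that stretch with curcumin.

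**Figure D3:**
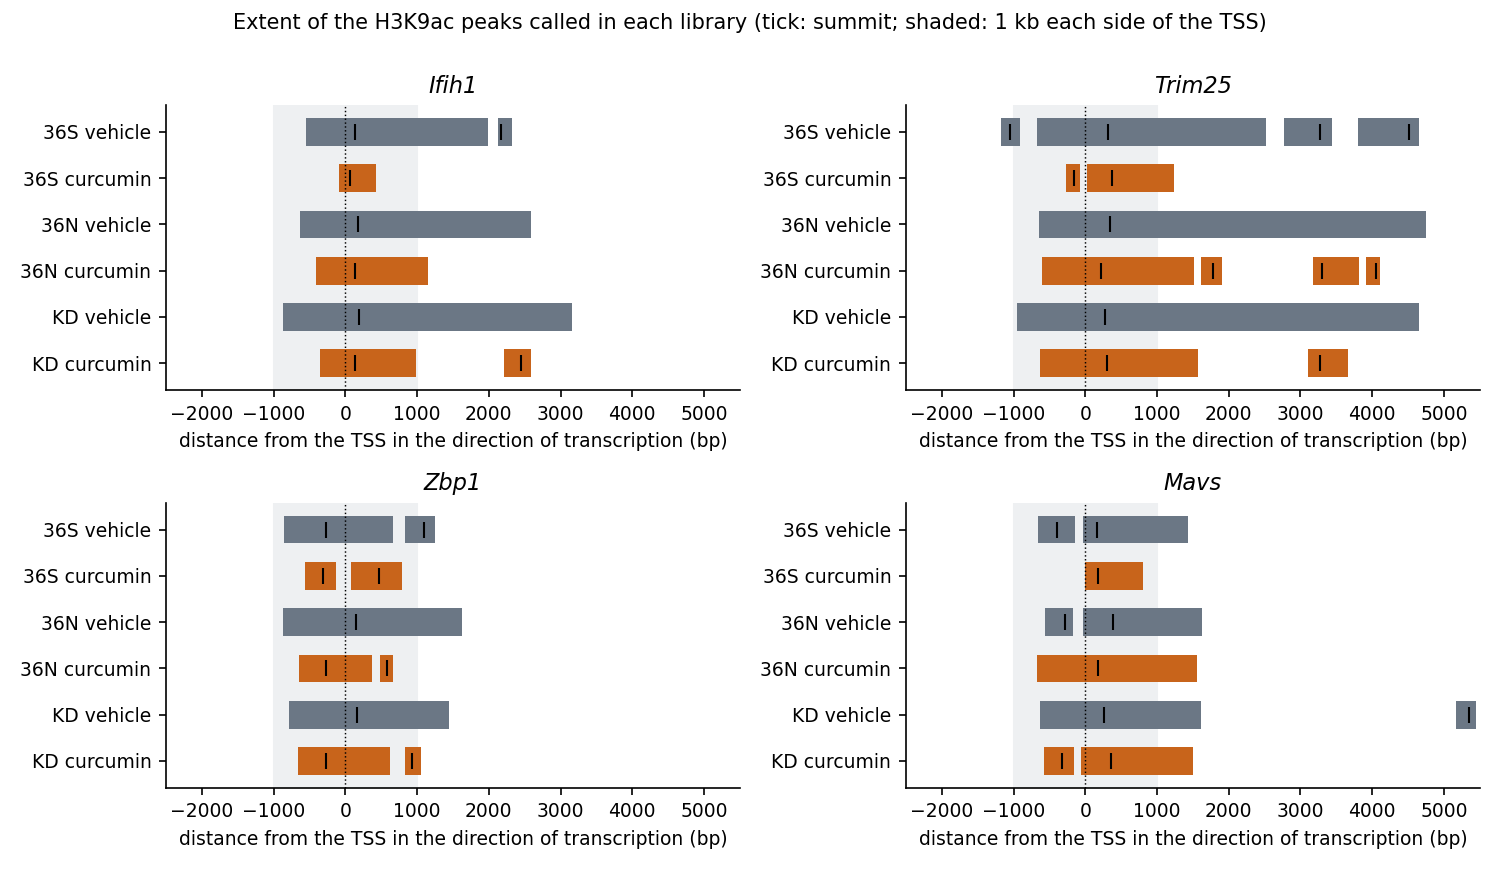
Extent of every H3K9ac peak around *Ifih1*, *Trim25*, *Zbp1* and *Mavs* in the 6 libraries, as distance from the TSS in bp in the direction of transcription; bars are peaks, black ticks summits, and the shaded band 1 kb on each side of the TSS. The *Trim25* peak of 5401 bp with vehicle in the 36N pair stands against a strongest peak of 2125 bp and 3 smaller ones with curcumin.

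At *Ddx58*, the peak ranked 49.4 with vehicle and 14.0 with curcumin in the KD pair, 27.4 and 14.9 in the 36N pair and 29.7 and 13.3 in the 36S pair. The *GFI1-KD* vehicle library held the highest *Ddx58* rank of the 6, and the curcumin libraries of all genotypes were close to each other. The summit held 156 fragments with vehicle and 47 with curcumin in the KD pair, a height of 25.4 (21.6 to 29.8) and 9.50 (6.98 to 12.6). In the 36N pair the height was 13.5 (10.7 to 16.8) and 8.999 (6.51 to 12.1), with intervals that overlapped, and in the 36S pair 17.4 (13.9 to 21.5) and 7.60 (5.29 to 10.6). The ratio of curcumin to vehicle was thus 0.373 in the KD pair, where the median of all promoters was 0.887. The ratio of 0.666 in the 36N pair lay among the lowest 1.12% of promoters with a peak in both libraries. The *Ddx58* peak covered the TSS in all libraries, and its width was 1902 to 2220 bp with vehicle and 1262 to 1509 bp with curcumin.

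At *Dhx58*, the peak ranked 39.8 with vehicle and 19.8 with curcumin in the 36N pair and 31.2 and 17.1 in the KD pair. In the 36S pair it was 24.4 with vehicle, and there was no promoter peak with curcumin, a loss shared by 16.2% of all promoters of that pair. The height was 17.6 (14.4 to 21.3) and 11.9 (9.04 to 15.5) in the 36N pair, with overlapping intervals, and 20.4 (17.0 to 24.3) and 11.1 (8.38 to 14.5) in the KD pair, with intervals apart. The summit lay 204 to 253 bp downstream of the TSS in the 3 vehicle libraries and in the *GFI1-36N* curcumin library. In the *GFI1-KD* curcumin library the highest point of the peak was found 1223 bp downstream instead, outside the promoter window, although the peak itself spanned 100702731 to 100704274 and reached the TSS. With the requirement of a summit inside the window, *Dhx58* therefore counted as lost in the KD pair.

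*Mavs* encodes the adaptor on which RIG-I and MDA5 converge, and *Trim25* a ubiquitin ligase that helps to activate RIG-I and is itself inducible by interferon. *Mavs*, on the plus strand of chromosome 2 from 131234063 to 131248025, was an exception to the lower ranks. It ranked 36.8 under vehicle and 48.6 under curcumin in the 36N pair, 21.2 and 23.6 in the KD pair and 43.8 and 39.6 in the 36S pair. The height in the 36N pair was 16.7 (13.6 to 20.4) with vehicle and 24.9 (20.6 to 29.8) with curcumin, with intervals apart, and the ratio of 1.49 compares with a median of 1.24 over all promoters. For the KD pair the height was 18.8 (15.5 to 22.5) and 23.0 (19.0 to 27.7), with overlapping intervals. In the 36S pair it was 22.5 (18.5 to 27.2) and 14.1 (10.9 to 18.0), where summits of all promoters were lower with a median ratio of 0.583. The local background under the *Mavs* summit was 1.55 and 1.77 times the genome background in the *GFI1-KD* libraries and at most 1.10 times in the others, which lowers fold enrichment. Ranked by height alone, *Mavs* was 14.9 higher with curcumin in the KD pair and 2.06 higher in the 36S pair, where its direction thus turned.

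The 150 bases before the *Mavs* start are printed because the peaks of several libraries left a gap there. The capitals mark the GC box, searched as GGGCGG on both strands, which occurred in 4 of the 7 promoters and in 35.7% of all promoters. The interferon-stimulated response element was not found in this promoter in either form.
*Mavs*, bases −150 to −1, plus strand, chr2:131233913-131234062: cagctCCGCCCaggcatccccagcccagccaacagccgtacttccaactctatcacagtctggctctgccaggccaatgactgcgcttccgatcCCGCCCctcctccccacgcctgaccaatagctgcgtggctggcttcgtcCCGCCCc
The middle GC box lay under a peak in 3 of 6 libraries and the first in 2. In the KD pair, a single peak of 2255 bp spanned the stretch with vehicle, and with curcumin the strongest peak had a width of 1559 bp and a second one lay upstream. In the 36N pair the order was the reverse, with a strongest peak of 1661 bp beside a second one with vehicle and a single peak of 2227 bp with curcumin.

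*Trim25*, on the plus strand of chromosome 11 from 88999376 to 89020293, ranked highest of the 10 genes in all 6 libraries. It ranked 94.7 with vehicle and 78.3 with curcumin in the 36N pair, 85.8 and 78.9 in the KD pair and 84.1 and 66.9 in the 36S pair. The height differed less, at 37.2 (32.4 to 42.4) and 34.7 (29.7 to 40.4) in the 36N pair and 40.1 (35.3 to 45.5) and 33.0 (28.1 to 38.4) in the KD pair, with intervals that overlapped in both. In the 36S pair it was 36.0 (30.8 to 41.7) and 18.5 (14.7 to 22.8), with intervals apart. The extent of the mark differed more than its height. A single peak of 5401 bp in *GFI1-36N* and of 5606 bp in the KD pair ran from the promoter into the gene with vehicle. With curcumin the strongest peak measured 2125 and 2210 bp, and 3 smaller peaks in *GFI1-36N* and 1 in the KD pair remained over intronic sequence downstream, at fold enrichments of 3.12 to 3.82.

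*Eif2ak2* encodes PKR, a kinase that binds double-stranded RNA and stops translation, and *Zbp1* a sensor of Z-form nucleic acids that triggers cell death. Both are known interferon-stimulated genes. *Eif2ak2*, on the minus strand of chromosome 17 from 78852564 to 78882573, ranked 71.2 with vehicle and 59.2 with curcumin in the 36N pair, 69.7 and 43.3 in the KD pair and 68.3 and 35.4 in the 36S pair. The 3 vehicle libraries differed little from each other, and the curcumin libraries differed in the distance to them. The height was 33.1 (28.7 to 38.0) and 21.2 (17.4 to 25.7) in the KD pair and 30.2 (25.5 to 35.5) and 12.4 (9.37 to 16.0) in the 36S pair, with intervals apart in both. In the 36N pair the height was not lower with curcumin, at 26.2 (22.2 to 30.7) and 28.3 (23.7 to 33.4), so that the lower rank there reflects a ratio of 1.08 below the median ratio of 1.24.

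*Zbp1*, on the minus strand of chromosome 2 from 173206612 to 173218923, ranked 42.2 with vehicle and 17.6 with curcumin in the 36N pair, 36.4 and 11.8 in the KD pair and 16.7 and 9.06 in the 36S pair. The height was 18.3 (15.0 to 22.0) and 10.5 (7.77 to 13.8) in the 36N pair, the one lower *GFI1-36N* height among the sensors whose intervals did not overlap. For the KD pair it was 20.2 (16.8 to 24.1) and 10.7 (8.03 to 14.0), and in the 36S pair 14.3 (11.1 to 18.1) and 6.95 (4.75 to 9.81). The local background under the *Zbp1* summit was 1.39 times the genome background in *GFI1-36S* vehicle and 1.33 times in *GFI1-KD* curcumin, which lowers fold enrichment. Ranked by height, the change was −12.1 instead of −7.60 in the 36S pair, and −19.1 instead of −24.6 in the KD pair. The *GFI1-36N* ratio of 0.573 was among the lowest 0.621% of promoters with a peak in both libraries. The summit also took another place. It lay 148 and 164 bp downstream of the TSS in the *GFI1-36N* and *-KD* vehicle libraries, and at −273 and −269 bp, upstream of the TSS, with curcumin. In the 36S pair it was upstream in both libraries, at −273 and −307 bp. The width of the strongest *Zbp1* peak was 2496 and 1016 bp in *GFI1-36N*, 2242 and 1279 bp in *GFI1-KD* and 1530 and 432 bp in the 36S pair.

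**Figure D4:**
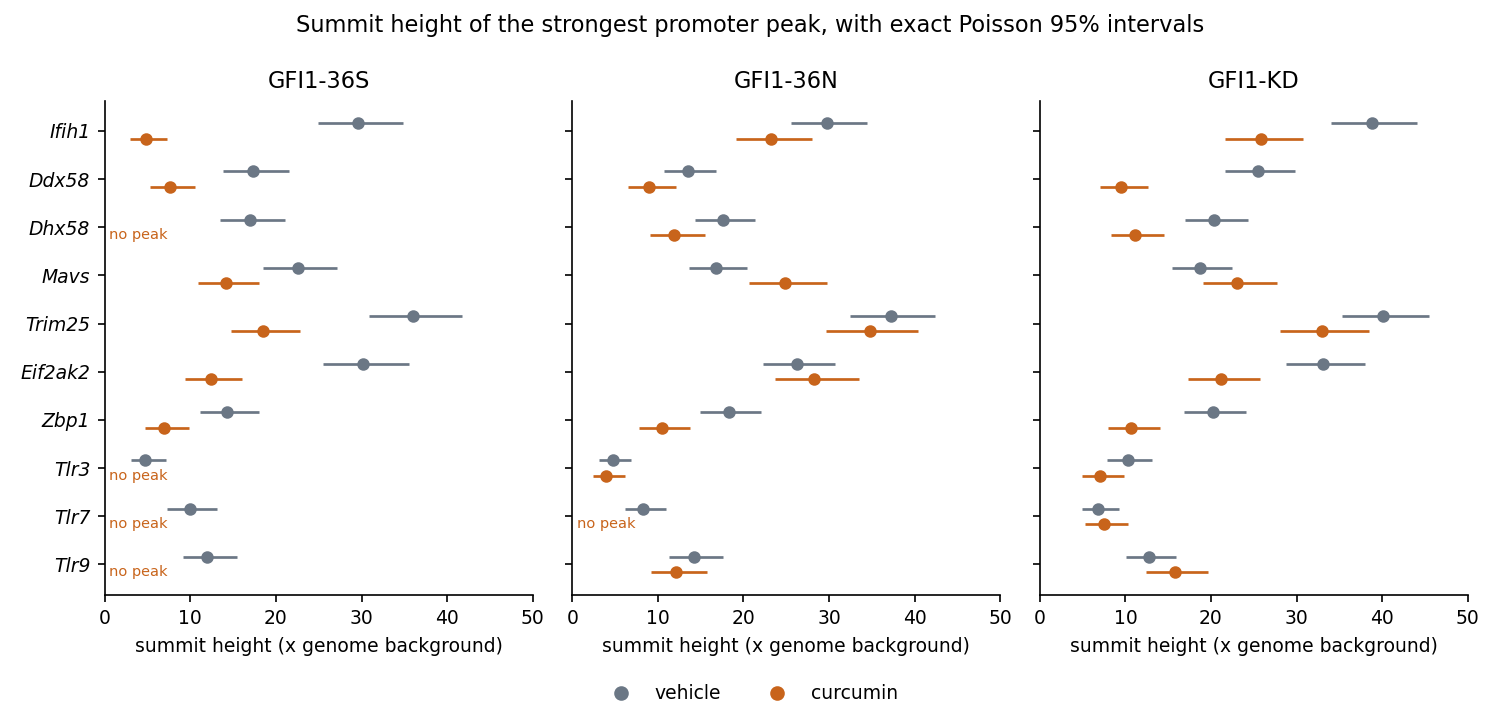
Summit height of the strongest promoter peak of each sensor gene, in multiples of the genome background of its library (horizontal axis), with exact Poisson 95% intervals for counting error; vehicle grey, curcumin orange, 1 library per point. The KD intervals of 5 of 10 genes lay apart, all lower with curcumin, and in the 36N pair those of *Zbp1* (lower) and *Mavs* (higher). In the 36S pair those of 6 of 6 genes lay apart, all lower. The intervals are not adjusted for the median height ratio of all promoters, 0.887 in the KD, 1.24 in the 36N and 0.583 in the 36S pair. The share of all promoters with intervals apart was not computed, so these counts have no background beside them.

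The endosomal receptors bind double-stranded RNA (*Tlr3*), single-stranded RNA (*Tlr7*) and unmethylated CpG DNA (*Tlr9*). *Tlr3* and *Tlr7* had the lowest ranks of the 10 genes in 5 libraries, and in the *GFI1-36S* curcumin library neither had a peak. *Tlr3*, on chromosome 8 from 45395665 to 45411080, ranked 5.61 with vehicle and 2.91 with curcumin in the 36N pair, 16.6 and 9.16 in the KD pair and 4.48 with vehicle in the 36S pair, where no peak was called with curcumin. Its summit held 19 to 63 fragments, and the height intervals overlapped in both pairs with a peak in each library. *Tlr7*, on chromosome X from 167304929 to 167330558, ranked 10.3 and 9.99 in the KD pair, 1.54 with vehicle in *GFI1-36N* and 15.0 with vehicle in the 36S pair, and had no promoter peak with curcumin in the latter genotypes. The loss in the 36N pair was the only one among the 10 genes, against 1.84% of all promoters. The *GFI1-36N* vehicle summit of *Tlr7* held 49 fragments over a local background of 2.47 times the genome background, so that its height of 8.28 was near the 9.92 and 6.85 of the other vehicle libraries in spite of the lower rank. Ranked by height, the *Tlr7* change in the 36N pair was −14.1 instead of −1.54.

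*Tlr9*, on the plus strand of chromosome 9 from 106222598 to 106226883, ranked 29.4 with vehicle and 20.1 with curcumin in the 36N pair, 21.04 and 27.7 in the KD pair and 18.8 with vehicle in the 36S pair, where no peak was called with curcumin. The direction thus differed between the 36N and KD pairs. The height was 14.2 (11.3 to 17.6) and 12.1 (9.22 to 15.7) in *GFI1-36N* and 12.7 (10.1 to 15.9) and 15.8 (12.5 to 19.7) in the KD pair, with overlapping intervals in both pairs. *Tlr3*, *Tlr7*, *Tlr9* and *Dhx58* were the 4 of 10 genes with no promoter peak in the *GFI1-36S* curcumin library. Of all promoters of that pair, 16.2% lost theirs. With vehicle these 4 genes ranked 4.48 to 24.4 in that pair.

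Monocyte and macrophage markers, among them *Csf1r*, *Ly86*, *Ccr2* and *Ms4a6c*, differed in the same directions as *Tlr9*. With curcumin, 8 of 8 ranked lower in the 36N pair, with a median rank of 27.2 with vehicle and 16.4 with curcumin. In the KD pair 8 of 8 ranked higher, with medians of 21.95 and 28.02, and in the 36S pair none had a peak with curcumin. Erythroid markers ranked lower at 8 of 8 genes in the KD pair and at 2 of 8 in the 36N pair, and neutrophil markers at 8 of 12 and 2 of 12. In the 36N pair, 5 erythroid and 7 neutrophil markers ranked higher. *Hbb-bt*, *Ltf*, *Ly6g* and *Mmp9* had no peak in either library of that pair, and such genes are left out of the shares of all promoters. All promoters ranked lower at 62.9% in the KD pair and 39.9% in the 36N pair, so that the neutrophil count in the KD pair was near its background. The 4 leukocyte markers ranked lower at 4 genes in the 36N pair and at 3 in the KD pair. The monocyte and erythroid lists thus differed in the same KD libraries as *Ifih1*, *Ddx58*, *Dhx58*, *Eif2ak2* and *Zbp1*, in opposite directions to each other. Of 8 plasmacytoid dendritic cell markers, 4 or 5 had a promoter peak in each library, and *Spib*, *Klk1* and *Cox6a2* had none in any. Of 9 B-cell markers, 0 to 4 had a peak, and *Pax5*, *Ms4a1* and *Vpreb1* had none in any library. In cells of mixed types, fewer cells of a type and less acetylation per cell cannot be told apart, and the part of cell composition in these ranks was not tested.

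The strongest promoter peak was narrower with curcumin at 8 of the 9 sensor genes with a peak in both *GFI1-36N* libraries, whereas 38.8% of all such promoters were narrower. For the KD pair it was narrower at 9 of 10 genes and in the 36S pair at 6 of 6, against backgrounds of 88.2% and 94.6%. The share in the 36N pair was far from its background, and those in the other pairs were near theirs. The summit was lower at 7 of 9 genes in the 36N pair, against 11.7% of all promoters. For the KD pair the count was 7 of 10 against 76.8%, and for the 36S pair 6 of 6 against 94.7%. A summit lower by over 1.5 times was found at 2 of 9 genes in *GFI1-36N* (1.12% of all promoters), 5 of 10 in *GFI1-KD* (7.74%) and 6 of 6 in the 36S pair (68.8%). The counts in the 36N and KD pairs lay above their background, while most promoters of the 36S pair shared such a change. A summit higher by over 1.5 times was found at 0 sensors, against 16.7%, 1.78% and 1.53% of promoters in the 36N, KD and 36S pairs. *Mavs* in the 36N pair fell just short of this cut, at 1.49 times with intervals apart.

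Inside the gene bodies, beyond the promoter window, the 10 genes held 5 peaks with vehicle and 6 with curcumin in the 36N and KD pairs alike, and 8 with vehicle and 0 with curcumin in the 36S pair. A peak that reached into the window was not counted. *Trim25* thus counts 0 with vehicle, where its peaks measured 5401 and 5606 bp, and 3 and 1 with curcumin. The counts therefore do not measure the extent of the mark. No share over all genes was computed, and the 36S lists held 41312 peaks with vehicle and 20354 with curcumin. No gene body peak exceeded a fold enrichment of 6.61. That peak covered the 3′ part of *Tlr9*, where a peak over exonic sequence, 3202 bp or more downstream of the TSS, was present in all libraries except *GFI1-36S* curcumin. At *Dhx58*, peaks of 277 to 1378 bp recurred in the same 5 libraries between 1997 and 3413 bp from the TSS. *Ifih1* had an intronic pair of peaks more than 26 kb from its TSS in the *GFI1-KD* vehicle library alone, of 1415 and 437 bp. *Ddx58*, *Zbp1* and *Tlr3* had no gene body peak in any library.

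A list of 35 further genes of the sensing pathways (other receptors, adaptors, kinases, nucleases and ligases) was compared in the same way. *Trex1*, a DNA exonuclease, had no promoter peak in any library. In the 36N pair, 21 of 33 genes with a peak ranked lower, against 39.9% of all promoters, and the median change was −2.57. In the KD pair 19 of 34 ranked lower (62.9% of all promoters) with a median change of −2.16, and in the 36S pair 24 of 33 (69.1%) with a median change of −7.69, both near the background. A rank lower by 10 or more was found for 9, 11 and 15 of these genes in the 3 genotypes in that order, against 11.3%, 20.6% and 41.4% of all promoters. The medians of this list thus lay closer to those of all promoters than the medians of the 10 sensors did.

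Among them, *Ddx60* (a helicase associated with RIG-I signalling), *Samhd1* (which depletes nucleotides and restricts viruses) and *Adar* (which edits double-stranded RNA) ranked lower by 10 or more in all 3 pairs, 3 of the 35 genes, as did 1.68% of all promoters with a peak in each pair. The 36S pair follows the labels here, and exchanging its treatments turns its direction. In the 36N and KD pairs alone, 4 of the 35 genes were lower by 10 or more, against 2.86% of these promoters. The further gene was *Irak1*, which changed by −11.2 and −10.9 in these pairs and by 0.77 in the 36S pair. *Ddx60* ranked 71.8 with vehicle and 36.6 with curcumin in the 36N pair, and 76.5 and 31.4 in the KD pair. *Samhd1* ranked 75.3 and 42.5 in the 36N pair, 82.9 and 56.3 in the KD pair, and 74.2 with vehicle and no peak with curcumin in the 36S pair. *Adar* ranked 93.6 and 61.4 in the 36N pair. *Ddx60*, *Samhd1* and *Adar* are also inducible by interferon. The list of 35 was not sorted by this trait, so that it is not shown to be particular to them, and a link to rank was not tested.

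The largest differences towards a higher rank on this list were at *Rnf125*, *Tnfaip3* and *Irak4* in the 36N pair, by 37.3, 16.6 and 16.5, and *Ticam1*, *Traf3* and *Rnaseh2b* in the KD pair, by 27.1, 14.1 and 11.2. *Rnf125*, a ubiquitin ligase that targets RIG-I for degradation, had one of the 3 largest differences towards a lower rank in the KD pair, 47.1 with vehicle and 3.46 with curcumin. In the 36S pair the 3 highest differences were at *Dhx9*, *Rnaseh2b* and *Rnf125*, by 44.7, 43.9 and 21.6, and the 3 lowest at *Nlrx1*, *Samhd1* and *Rnf135*. *Nlrx1*, a mitochondrial regulator of MAVS signalling, went from 95.7 to no peak, and *Rnf135*, a further ligase of RIG-I, from 66.4 to 13.7. Peaks were also lost in this pair at *Tlr8*, *Tlr13* and *Ifi204*, and in the KD pair at *Aim2*, from rank 1.89. The losses were thus at 5 of 33 genes in the 36S pair, against 16.2% of all promoters, and 1 of 34 in the KD pair, against 6.73%. Neither count exceeded its background.

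**Figure D5:**
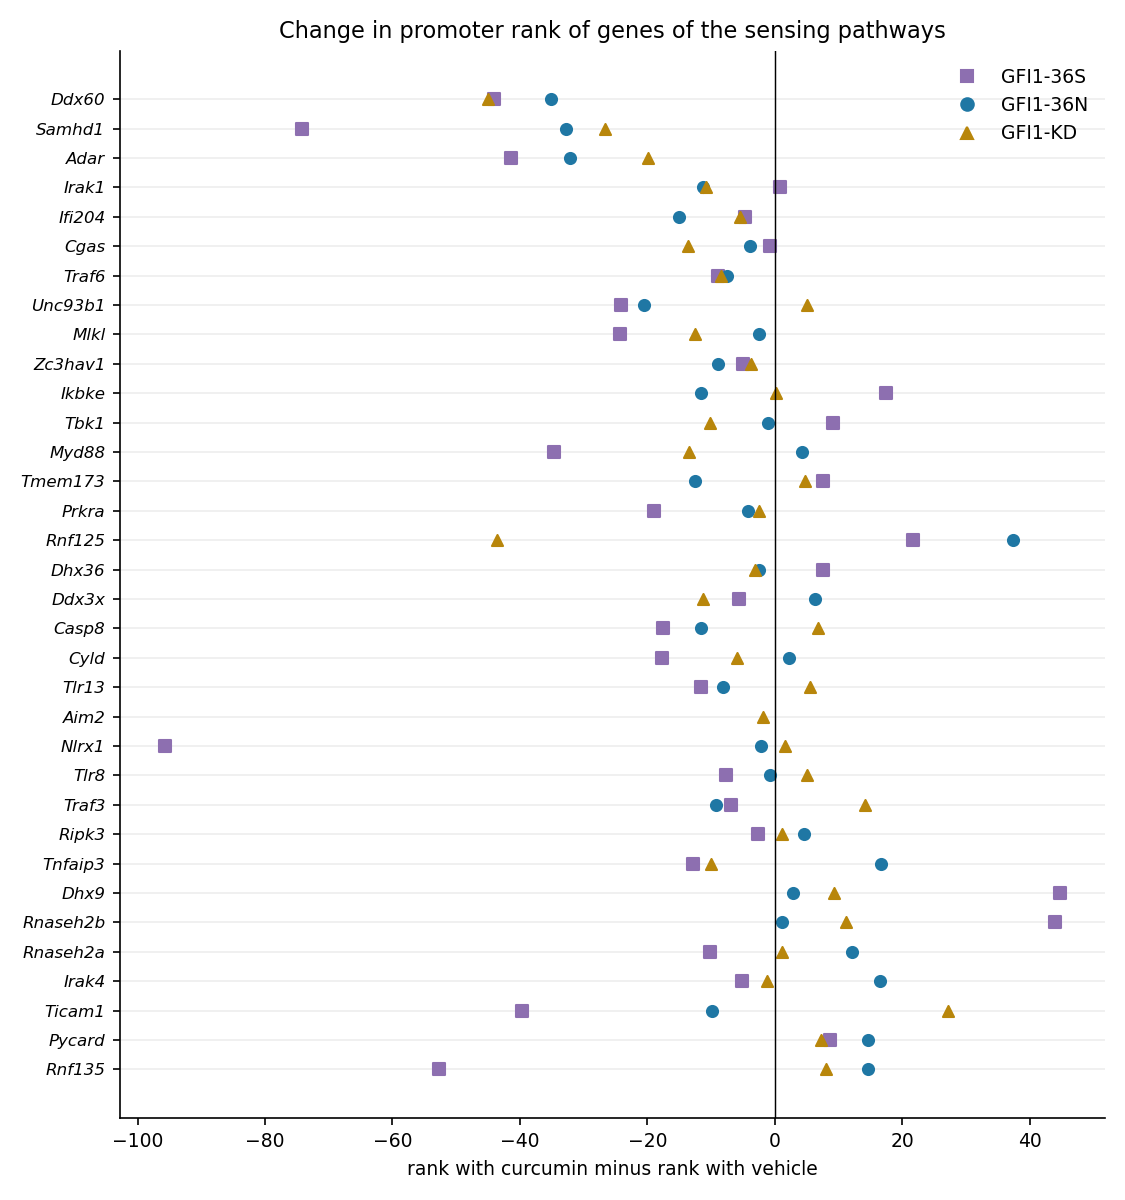
Rank with curcumin minus rank with vehicle (horizontal axis) for the 34 listed pathway genes with a promoter peak in any library, with squares for *GFI1-36S*, circles for *-36N* and triangles for *-KD* mice, 1 pair of libraries per point. *Ddx60*, *Samhd1* and *Adar* lie below −10 in all genotypes when the 36S labels are followed. *Rnf125* lies at 37.3 in *GFI1-36N* and −43.6 in the KD pair.

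The mean rank of *Ifih1*, *Ddx58* and *Dhx58* was 49.6 under vehicle and 26.2 under curcumin in the 36N pair, 54.6 and 29.9 in the KD pair and 40.1 and 5.58 in the 36S pair. Of all other promoters, those whose ranks over the 6 libraries had the smallest mean absolute difference from it were *Pnp* and *Gm49342*, which gave identical ranks, at 2.79 points, followed by *Neurl3* at 3.64, *Cst3* at 3.87 and *Phactr2* at 4.25. *Pnp*, which encodes a purine salvage enzyme, ranked 48.4 and 26.8 in the 36N pair and 49.7 and 32.2 in the KD pair.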

How the data were processed

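H3K9ac ChIP-seq of 6 libraries was used. The samples labelled input and rabbit IgG were not analysed here. The authors trimmed the reads with Trim Galore, mapped them to mm10 with BWA-MEM, called peaks per library with MACS2 and removed black list regions. The control of each list, the threshold and the tool versions are not given in the sources used here. Fold enrichment, as deposited, divides the fragments at a summit by those of its local background (a ratio). The −log10 p, the −log10 q and the integer score are also deposited values of the authors' peak caller. Read counts that the authors normalized with DiffBind were not used here.

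TSSs came from GENCODE M21 (basic set), and a promoter peak was one with at least 1 bp within 1000 bp of a TSS of a protein-coding gene. Python 3.11.15 was used with pandas 2.3.3, numpy 2.4.6, matplotlib 3.10.9 and scipy 1.17.1. Fragments at the summit were solved from fold enrichment (with MACS2's 1 added to both terms) and its Poisson p, and recovered for 98.0% to 99.8% of peaks, and the median summit held 24 to 36. They were recovered at every sensor peak. Where not recovered elsewhere, the height was taken from fold enrichment over the genome background. No p-value was computed, since each group has 1 library and the 3 genotypes were not taken as replicates of one another. Sequences came from the RefSeq promoter table of GRCm38.p6, which is mm10. The steps were tested on simulated data.

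The 10 genes, the lists and the alternatives were chosen with earlier results of these data known, including lower ranks of interferon-stimulated genes. All 10 genes are reported, and of the pathway list those that lost or gained a peak and the 3 lowest and 3 highest differences in each pair. *Irak1* was added after its values were seen. Grouping 6 genes, ranking by height and using all GENCODE transcripts were added after the data were seen.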

Additional observations from a re-analysis of the deposited data

Results flagged for a closer look

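These changes in rank with curcumin pointed in different directions between genotypes. The difference was not tested, since each genotype has 1 library per treatment. For *Mavs* the 36N pair gave 11.9, the KD pair 2.42 and the 36S pair −4.24, which became 2.06 when ranked by summit height, so that its direction did not then differ. For *Tlr9* these pairs gave −9.29, 6.71 and −18.8.

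Of the 35 pathway genes, 6 differed by 10 or more in opposite directions. For *Rnf125* the 36N pair gave 37.3, the KD pair −43.6 and the 36S pair 21.6. For *Rnf135* they gave 14.6, 8.04 and −52.7, for *Ticam1* −9.86, 27.1 and −39.8, and for *Tnfaip3* 16.6, −10.1 and −12.8. For *Ikbke* they gave −11.6, 0.17 and 17.4, and for *Rnaseh2a* 12.1, 1.07 and −10.2. The last 2 genes were added after their values were seen.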

How the results depend on the processing

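No paired analysis was possible because, within a genotype, each group has 1 library. A test across the 3 genotypes was not made. With the *GFI1-36S* treatments exchanged, as in the list names, 0% of the 10 genes ranked lower, the median change was 16.9, 0 genes lost and 4 gained a promoter peak, and the changes became 62.7 for *Ifih1*, 16.5 for *Ddx58*, 24.4 for *Dhx58*, 17.2 for *Trim25*, 32.8 for *Eif2ak2*, 15.0 for *Tlr7* and 18.8 for *Tlr9*. In the group of 6 genes without *Mavs* and the Toll-like receptors, 100% ranked lower in *GFI1-36N* and in *-KD* mice (39.9% and 62.9% of all promoters), with medians of −18.2 and −24.6. This share was fixed by the choice, made after the values were seen, since the genes left out include those that ranked higher. Among peaks whose −log10 q reached 5, 2 genes lost the peak in *GFI1-36N* mice, and with the summit inside the window 1 did in *GFI1-KD* mice. Over all alternatives other than that group, the median change stayed between −15.6 and −11.9 in *GFI1-36N* and between −15.9 and −10.3 in *GFI1-KD* mice. With equal numbers of top peaks it was −13.3 in *GFI1-36S* mice. The share ranked lower in *GFI1-KD* mice was 70% with a −log10 q of 5 or equal numbers of top peaks, where *Tlr7* turned to 0.61 and 1.29, and in *GFI1-36S* mice 90% by summit height, where *Mavs* turned to 2.06. Few fragments limit the precision of the heights at *Tlr3*, with 19 in one library, and at *Ifih1* in *GFI1-36S* curcumin, with 22.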
